A study of Daphnia magna with 15 samples.

Results

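In all, 6 bisulfite libraries of the water flea Daphnia magna, 3 labelled control and 3 labelled salinity, were compared for DNA methylation of gene models. They were chosen by sample title, by a rule that used no measured values, though earlier results of these data were known. The controls carry titles 3, 7 and 9 and are called control replicates 1, 2 and 3. The salinity libraries carry titles 28, 36 and 38, form the second set of 3 salinity libraries by title number, and are called the trio. These are 6 of the 15 libraries of the series, which holds 9 other salinity libraries. All libraries were genomic DNA of adult females. Founder cultures were kept at 0 g/L NaCl (control) or 4.1 g/L NaCl (salinity), 3 cultures for each, at 20 °C under a day of 16 h light and 8 h dark. Newborns founded each later generation, up to the fourth, in control medium. The labels tie no library to a generation or a culture, so an animal of the trio may be an exposed founder or an unexposed descendant, and a p-value reflects only how these libraries vary, which may be partly technical.

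DNA methylation in arthropods is carried by cytosines next to guanines and is known to be sparse, with most methylated sites lying in the bodies of a minority of genes. It is written by DNA methyltransferases and, once set, can be copied at cell division. Daphnia is used in such work because mothers reproduce clonally, so that genetic differences between a mother and her daughters are small. The series is about whether salinity lowers methylation and whether a lower level is passed on. The comparison here asks how far the trio differed from the controls.

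DNA was cut with MspI, an enzyme that cuts at CCGG, and treated with bisulfite, which changes unmethylated cytosines so that they are read as thymine. The deposited values give for each gene model how many cytosines were called in all and how many of those calls were methylated, and the methylation level is the second divided by the first. A gene model without listed methylated calls has a level of 0, which does not mean that none occurred, because counts of 1 and 2 were listed in none of the 6 libraries (0 gene models each). The lowest recurring methylated count was 3 in control replicates 1 and 2 and in all of the trio, and 4 in control replicate 3. Among the other salinity libraries it was 4 in titles 51, 54 and 55 and 3 in the rest. Of the 6, control replicate 3 stood apart. Methylated calls were listed for 508 of its 13647 gene models (3.72%), against 9.49% and 9.92% in the other two controls and 7.68% to 11.1% in the trio. Results are therefore given with and without it. The identifiers of the gene models are not paired with gene names in the sources used here, so no gene function is given.

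The clearest difference was in how many gene models were listed. Whether a gene model left unlisted in a library had no reads there was not tested. The trio listed 10568 gene models in library 28, 10218 in library 36 and 10664 in library 38. The controls listed 15803, 14631 and 13647 in replicates 1 to 3. Every trio library thus lay below every control, with means of 10483 ± 235 (SD, n = 3) and 14694 ± 1079 (SD, n = 3). The difference of -4210 gene models had a two-sided exact permutation p of 0.1, the smallest that 20 splits of 3 against 3 can give. Total calls were also lower in every trio library, from 1440131 to 1913468 against 2115766 to 2467138 in the controls (exact permutation p = 0.1). The median number of calls per listed gene model did not separate the groups, with 70, 66 and 53 in libraries 28, 36 and 38 and 64, 64 and 58 in the controls (exact permutation p = 0.8). The 9 other salinity libraries listed 8053 to 18896 gene models, a range that holds the trio (exact permutation over 220 splits, p = 0.286).

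The trio did not lack 1 common block of gene models. Of the 7190 gene models listed in all 3 controls, 654 were listed in none of the trio, 1173 in 1 library of it, 2607 in 2 and 2756 in all 3. Only 2 gene models were listed in all of the trio and in no control. In control replicates 1 and 2, the 654 gene models missing from the trio had levels of 0.320% and 0.395%, against 0.304% and 0.355% in the 2756 found in all 6 libraries. They had methylated calls in 9.63% and 12.7% of cases against 7.29% and 7.84%, and medians of 68 and 68.5 calls against 48.5 and 49. Those listed in 1 or 2 of the trio were also read more deeply than those found in all 6 libraries, with medians of 66 to 76 calls in these controls, and 8.18% to 9.86% of them had methylated calls. Depth was thus not particular to the gene models missing from the whole trio.

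In number, each trio library shared more listings with every control than with any other library of the trio. The controls also listed more gene models. As a share of those listed in either library, the highest value of each trio library was with 1 control. Library 28 had most listings in common with control replicate 1 (48.4% of those listed in either), library 36 with control replicate 3 (52.1%) and library 38 with control replicate 2 (50.4%). Within the trio the same share was 27.6% for libraries 28 and 36, 30.4% for 28 and 38, and 41.6% for 36 and 38, and within the controls it was 39.8% to 46.4%. Over the 9 pairs across groups it ran from 26.8% to 52.1%, a range that holds the pairs within each group. The largest of the 63 patterns of listing held 3016 gene models found in control replicate 1 and library 28 only.

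Levels were compared over the 2097 gene models with at least 10 calls in all 6 libraries, which held 13.6% to 14.3% of the calls of the controls and 19.5% to 20.2% of those of the trio. Methylated calls made up 0.268%, 0.318% and 0.130% of calls in control replicates 1 to 3. In the trio they made up 0.261%, 0.287% and 0.290% in libraries 28, 36 and 38. Libraries 36 and 38 lay between control replicates 1 and 2, library 28 just below both, and all of the trio above control replicate 3. The control mean was 0.239% ± 0.0973 and the trio mean 0.279% ± 0.0162 (SD, n = 3 each). The trio was higher by 0.0407 percentage points, which is within the spread of the controls (two-sided exact permutation p = 0.8). Inverting the test at the 90% level, the highest that 3 against 3 allows, gave an interval of -0.0570 to 0.160 percentage points. Without control replicate 3 the direction turned, and the trio was lower by mean (-0.0122 percentage points over 2163 gene models, exact permutation p = 0.6).

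**Figure D1:**
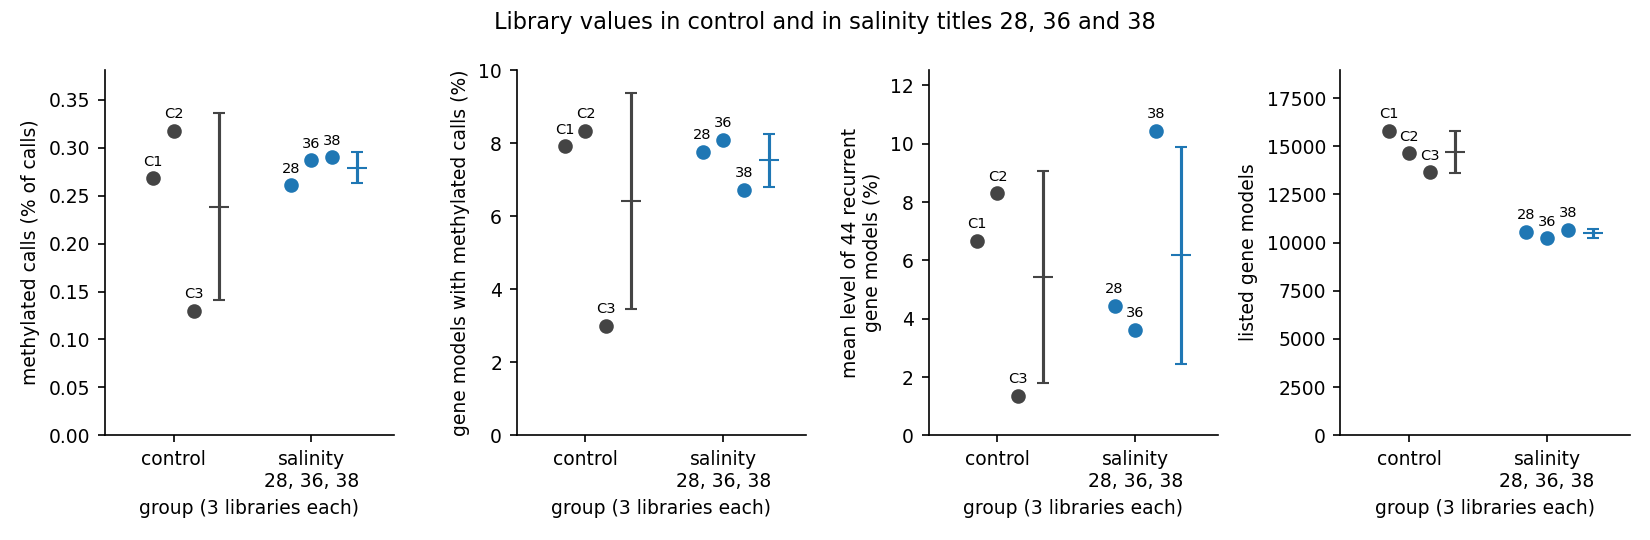
Values of the 6 libraries, with control in grey (C1 to C3 are replicates 1 to 3) and salinity titles 28, 36 and 38 in blue; points are libraries and bars are means ± SD (n = 3). From left to right the vertical axes show methylated calls as a percentage of all calls, the percentage of gene models with methylated calls, the mean level of 44 recurrently methylated gene models in percent, and listed gene models; the groups separate only in the last, where the trio is at 10218 to 10664 and the controls at 13647 to 15803.

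The same held when each gene model had equal weight. The mean level was 0.695%, 0.859% and 0.302% in control replicates 1 to 3 and 0.715%, 0.712% and 0.851% in libraries 28, 36 and 38 (exact permutation p = 0.5). Methylated calls were present in 7.92%, 8.35% and 3.00% of the gene models in the controls and in 7.77%, 8.11% and 6.72% in the trio. In this share the trio again lay above control replicate 3 and below control replicate 2, with group means of 6.42% ± 2.97 (SD, n = 3) and 7.53% ± 0.722 (SD, n = 3) and an exact permutation p of 0.9. Without control replicate 3 these differences turned as well, from 0.140 to -0.0271 percentage points in mean level and from 1.11 to -0.663 in the share. A level of 10% or more was reached by 47, 63 and 29 gene models in the controls and 55, 62 and 59 in the trio (exact permutation p = 0.4), and a level of 50% or more by 3, 3 and 0 against 2, 0 and 4.

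Sample titles also carry a second number in 3 bands, each with 1 control and 1 trio library, and the overall difference was not the same across them. Library 28 was below control replicate 1 (-0.00753 percentage points) and library 36 below control replicate 2 (-0.0305), while library 38 was above control replicate 3 (0.160). What the bands stand for is not given in the sources used here.

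Larger sets of gene models were reached by comparing libraries pair by pair, over 4532 to 7521 gene models covered at 10 or more calls in both. In the 6 pairs of a trio library with control replicate 1 or 2 the trio level was lower in 4 and higher in 2, by -0.0434 to 0.0422 percentage points. Library 36 was the higher one in both of the exceptions, at 0.379% against 0.337% in control replicate 1 and 0.362% against 0.356% in control replicate 2. Library 28 was at 0.317% against 0.347% and at 0.360% against 0.404%, and library 38 at 0.290% against 0.301% and at 0.313% against 0.336%. Control replicates 1 and 2 differed from each other by 0.0318 percentage points (0.326% and 0.358% over 8103 gene models), which is less than the largest of these differences and more than 4 of the 6. Against control replicate 3 all 3 pairs were higher in the trio, by 0.130 to 0.209 percentage points. The pairs share libraries and gene models, so no test was made of them.

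How deeply a gene model was read bounded which levels could be seen, since the lowest recurring methylated count was 3, or 4 in control replicate 3. Among the 287 gene models with a mean under 30 calls, the median level where methylated was 16.7%, 15.8% and 23.1% in libraries 28, 36 and 38 and 19.4%, 20.3% and 27.9% in the controls. The value of control replicate 3 rested on 6 methylated gene models, those of the other libraries on 18 to 28. Among the 669 with a mean over 120 calls it was 1.69%, 1.46% and 2.09% against 1.91%, 1.604% and 1.45%. The deeper class held 75.6% to 76.5% of the calls of each library but 26.5% to 36.6% of its methylated calls, so most methylated calls lay in the shallower classes. The share with methylated calls changed less with depth. It ran from 5.08% to 9.76% over all depth classes of the trio, from 6.27% to 9.76% in control replicates 1 and 2, and from 2.09% to 3.18% in control replicate 3. Library 38 had its lowest share in the deepest class (5.08%), where libraries 28 and 36 were at 7.77% and 9.12%.

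**Figure D2:**
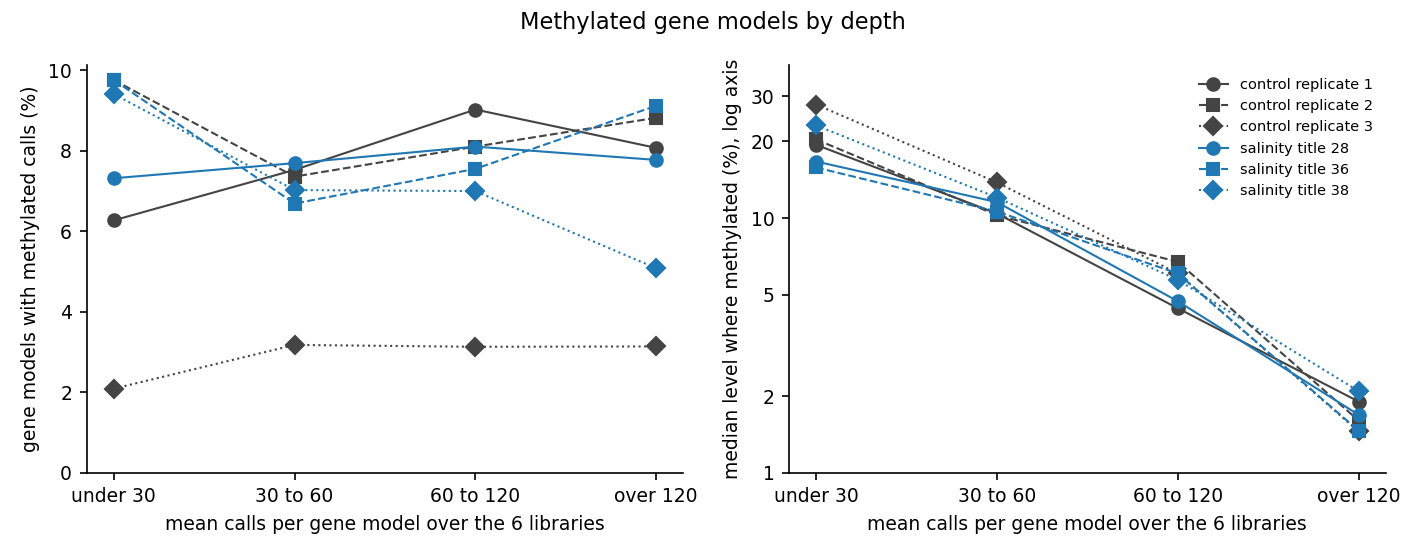
Gene models grouped by their mean calls over the 6 libraries (horizontal axis; classes bounded at 30, 60 and 120 calls), with 1 line per library, control in grey and the trio in blue. The left axis is the percentage of gene models with methylated calls and the right axis (log scale) the median level in percent where methylated; control replicate 3 lies lowest at every depth on the left, at 2.09% to 3.18%, and all libraries fall together on the right.

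Most gene models carried no listed methylation, and where it occurred it was often found in 1 library. In 1661 (79.2%) of the 2097 gene models all 6 libraries were at 0, and 436 (20.8%) had methylated calls. Of these 436, 208 were methylated in 1 library. Both groups were represented in 193, the trio alone in 138 and the controls alone in 105. These counts depend on control replicate 3, which had methylated calls at 63 gene models, against 141 to 175 in the other libraries. With it left out, 10 were methylated in all of the trio and in neither remaining control. In the other direction, 5 were methylated in control replicates 1 and 2 and in none of the trio, a condition on fewer libraries. Methylation in 2 or more controls was found at 87 gene models, and 77 of these (88.5%) were methylated in the trio too, in 1 library or more. Of the 108 methylated in at least 2 of the trio, 83 (76.9%) were methylated in at least 1 control.

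**Figure D3:**
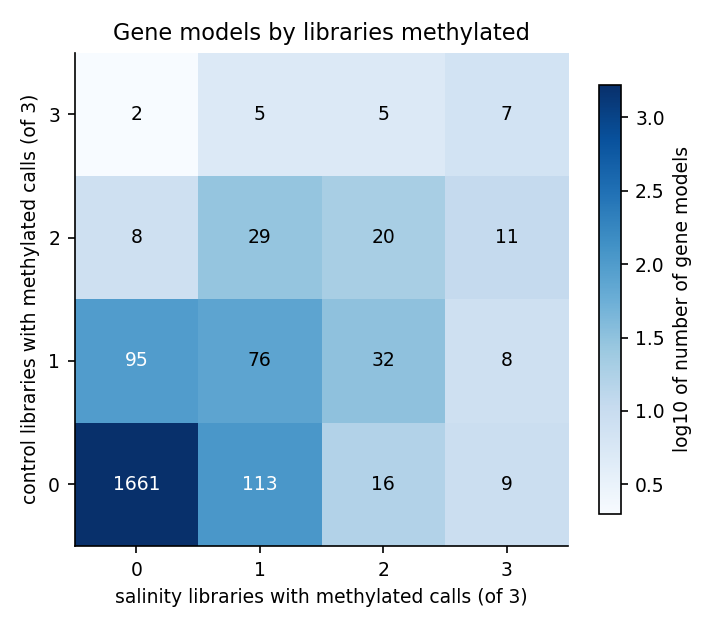
Number of gene models by how many of the 3 trio libraries (horizontal axis) and how many of the 3 controls (vertical axis) had methylated calls; the colour is the log10 number and the numbers are printed. Most gene models (1661) are at 0 and 0, 7 are methylated in all 6 libraries, 9 in all of the trio and no control, and 2 in all controls and none of the trio. The controls include replicate 3, which had few methylated gene models.

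The share of methylated gene models that 2 libraries had in common overlapped between pairs within a group and pairs across groups. Of the gene models methylated in either library, 21.5% to 24.7% were methylated in both for the 3 pairs within the trio. Control replicates 1 and 2 shared 23.6%, and the 6 pairs of these 2 controls with the trio shared 22.6% to 29.5%. The highest value was that of control replicate 2 with library 38 (72 gene models) and the next that of control replicate 2 with library 36 (28.7%, 77 gene models). Pairs with control replicate 3 were at 10.3% to 16.5%. These shares are descriptions, since the pairs reuse the same libraries.

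None of the 7 gene models methylated in all 6 libraries had groups that did not overlap. Their means ran from 1.12% to 23.1% in control and from 1.30% to 23.5% in the trio, with exact permutation p from 0.4 to 0.9. The mean differed most at Dapma7bEVm007829t1, named for that reason after its values were seen, with 9.30%, 5.71% and 14.8% in control replicates 1 to 3 and 9.43%, 31.9% and 12.8% in libraries 28, 36 and 38 (means 9.94% and 18.1%, exact permutation p = 0.4). Library 36 alone lay above the range of the controls there. Of the 7, 3 had the same methylated counts in at least 5 of the 6 libraries, so they may share reads and need not be separate loci. In the other salinity libraries these 3 were methylated in 24 of 27 covered listings (88.9%) and the other 4 in 9 of 17 (52.9%).

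Gene models with the highest mean level over the 6 libraries rested on few calls. Dapma7bEVm006915t1 had 14 of 20 calls methylated in library 28, 20 of 41 in library 36 and 21 of 31 in library 38, which is 70%, 48.8% and 67.7%. In the controls it had 10 of 13 (76.9%) in replicate 2 and 0 of 16 and 0 of 24 in replicates 1 and 3. It was thus methylated in every trio library and in 1 control, and the spread of the controls was wider than the difference (62.2% ± 11.7 in the trio and 25.6% ± 44.4 in control, SD, n = 3 each, exact permutation p = 0.4). Dapma7bEVm018432t1 was at 63.6%, 41.4% and 32% in libraries 28, 36 and 38 and at 46.2%, 72.7% and 0% in control replicates 1 to 3 (exact permutation p = 0.9). The other 3 of the 5 highest had trio means of 23.5% to 34.0% and control means of 18.2% to 41.8%, with exact permutation p from 0.8 to 1, and 1 of them was the higher in control.

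Single gene models were tested to find loci that differed between the trio and the controls. None of the 2097 passed (quasi-binomial regression on the counts, F test, two-sided, p adjusted by Benjamini-Hochberg under 0.05), so the percentage called was 0%, which does not show that none differed. Before adjustment, 28 (1.34%) had p below 0.05, 19 of them (0.906%) higher and 9 (0.429%) lower in the trio. The 1661 gene models without methylated calls could not reach a small p, so all 28 were among the other 436. Those percentages are of all 2097 and so cannot be set against the threshold of 0.05. With edgeR's quasi-likelihood test on the 436 that had methylated calls, 0 passed and 5 had an unadjusted p below 0.05. Limma on logit levels called 6 (5 higher and 1 lower) when all 2097 entered, and 0 when only the 436 entered, where 18 had an unadjusted p under 0.05. Without control replicate 3 the balance turned, with 7 higher and 12 lower among 19 at an unadjusted p under 0.05.

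Listed levels of the 2 groups did not overlap at 11 gene models higher in the trio (0.525% of the 2097) and at 5 lower in it (0.238%). Of the 11, 9 were methylated in all of the trio and in no control, with trio means of 3.41% to 20.4%. Of the 5, 2 were methylated in all controls and in none of the trio, with control means of 10.6% and 12.3%. The excess of higher ones depended on control replicate 3, since without it 13 were higher and 20 lower among 2163 gene models. Of the 9, 2 had the same methylated counts in every library and may share reads. A control at 0 may hold an unlisted count, so some of the 9 may not be separate from the controls. At a gene model with 10 calls in control replicate 2, the largest unlisted count would be a level of 20%. Its trio levels were 10.3% to 14.3%. At others of the 9, among them the 2 higher ones named below, such a level would lie below the whole trio in every control.

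The gene model with the smallest p among those higher in the trio was Dapma7bEVm004868t1. It had 15 of 95 calls methylated in library 28 (15.8%), 9 of 61 in library 36 (14.8%) and 9 of 53 in library 38 (16.98%). None of the 50, 41 and 42 calls of control replicates 1 to 3 was listed as methylated. Its 3 trio levels lay close together, at 15.8% ± 1.11 (SD, n = 3), and the largest counts that would have gone unlisted would be levels of 4%, 4.88% and 7.14% in the controls. The unadjusted p was 0.00415 (adjusted p = 1 over the 2097), and the exact permutation p was 0.1. In the 4 other salinity libraries that covered it, with 23 to 73 calls, it had no methylated call listed.

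Dapma7bEVm004303t1 followed with 12 of 59 calls in library 28 (20.3%), 7 of 43 in library 36 (16.3%) and 8 of 41 in library 38 (19.5%). The controls had 0 of 27, 0 of 37 and 0 of 31. The groups did not overlap, at 18.7% ± 2.15 (SD, n = 3) against 0 in every control, and the adjusted p from the regression was 1 (unadjusted 0.00548). It was methylated in 2 of the 8 other salinity libraries that covered it, at 19.05% in library 11 and 29.4% in library 48.

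Among those lower in the trio, Dapma7bEVm003309t1 had 4 of 84 (4.76%), 7 of 56 (12.5%) and 12 of 82 (14.6%) calls methylated in control replicates 1 to 3. The trio had 0 of 59, 0 of 61 and 0 of 63. Control replicate 3, which listed few methylated gene models, had the highest level here. The control mean was 10.6% ± 5.19 (SD, n = 3; adjusted p = 1, unadjusted p 0.00783 from the regression, exact permutation p = 0.1). It was methylated in 2 of the 6 other salinity libraries that covered it, at 10.8% in library 11 and 8.16% in library 25.

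Dapma7bEVm002844t1 had 5 of 52 (9.62%), 4 of 36 (11.1%) and 5 of 31 (16.1%) methylated calls in control replicates 1 to 3 and 0 of 55, 0 of 36 and 0 of 63 in libraries 28, 36 and 38. Its control mean was 12.3% ± 3.41 (SD, n = 3; adjusted p = 1, unadjusted p 0.00791 from the regression). It was methylated in 3 of 9 other salinity libraries, at 5.80% to 7.69%, so neither of these 2 gene models was unmethylated in all libraries labelled salinity.

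**Figure D4:**
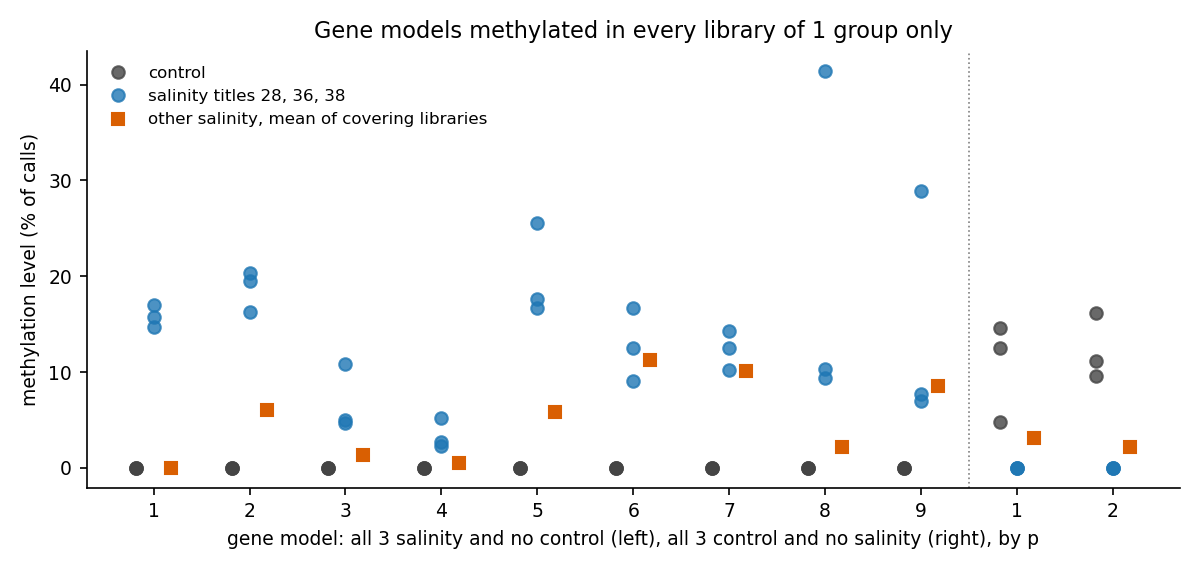
Methylation level in percent of calls (vertical axis) of the 9 gene models methylated in all of the trio and no control (left of the dotted line) and the 2 methylated in all controls and none of the trio (right), ordered by p; points are libraries (control grey, trio blue, points at 0 coincide) and orange squares the mean of the other salinity libraries that covered the gene model. Levels in the group with methylation run from 2.34% to 41.5%, and the orange mean is above 0 for 8 of the 9 on the left.

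The 20 gene models with the smallest p, 10 in each direction, show what the test leaned on. All 10 higher ones had no methylated call in any control, and 7 of them were methylated in all of the trio and 3 in 2 of its libraries. All 10 lower ones had no methylated call in the trio, and 2 were methylated in all controls, 7 in 2 of them and 1 in a single one. In the other salinity libraries the 10 higher ones were methylated in 20 of 55 covered listings (36.4%) and the 10 lower ones in 18 of 71 (25.4%). Each 10 held 9 different sets of counts, since 2 gene models had the same methylated counts in the 6 libraries and may share reads. Each of these 2 was methylated in 5 of 9 other salinity libraries among the higher ones, and in 4 of 9 among the lower ones. Other classes of gene models give the scale for these shares. Among all gene models methylated in the trio alone, 0.794% to 25.9% of those covered were methylated in each of these 9 libraries (median 20%), and among all methylated in the controls alone 6.25% to 33.3% (median 13.8%). Those methylated in both groups were at 9.70% to 50% (median 36.6%), and the 1661 without methylated calls in the 6 libraries at 0.200% to 3.01%. The shares of the 20 are pooled over listings, while these classes are given per library. Of the 138 methylated in the trio alone, 113 were so in 1 library. Nearer in kind are those methylated in at least 2 of the trio and no control, at 0% to 52% (median 37.5%). Those methylated in at least 2 controls and none of the trio were at 12.5% to 62.5% (median 28.6%). The 36.4% lay near the median of those methylated in at least 2 of the trio and no control, which include the 10. It lay above the range of all methylated in the trio alone, most of which were methylated in 1 library. Both shares lay within the range of gene models methylated in both groups.

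Libraries outside the comparison were also used to choose gene models, so that the choice did not rest on the 6. In the 9 other salinity libraries, 486 gene models were covered at least 5 times and methylated in at least 50% of the covering libraries, and 44 of these were covered in all 6 libraries compared here. The 44 averaged 6.68%, 8.30% and 1.35% in control replicates 1 to 3. They averaged 4.44%, 3.63% and 10.4% in libraries 28, 36 and 38. Library 38 lay above every control and libraries 28 and 36 between control replicates 1 and 3, so the trio spanned a range as wide as that of the controls. The control mean was 5.44% ± 3.63 and the trio mean 6.17% ± 3.72 (SD, n = 3 each, exact permutation p = 0.9), and the direction turned without control replicate 3 (-1.19 percentage points) and without library 38 (-1.38).

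Of the 44, 20 had the higher mean in the trio, 22 the lower, and 2 had no methylated call in the 6 libraries. Their median difference was -0.00253 percentage points, beside 230 higher, 206 lower and a median of 0 over all 2097. Methylated calls were present at 22, 26 and 10 of the 44 in control replicates 1 to 3 and at 15, 17 and 26 in libraries 28, 36 and 38. Library 38 and control replicate 2 had 19 in common, the most of any of the 15 pairs, and library 38 had 9 in common with library 28 and 11 with library 36. Some of the 44 had the same counts as another one, with 37 different sets of counts among them.

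**Figure D5:**
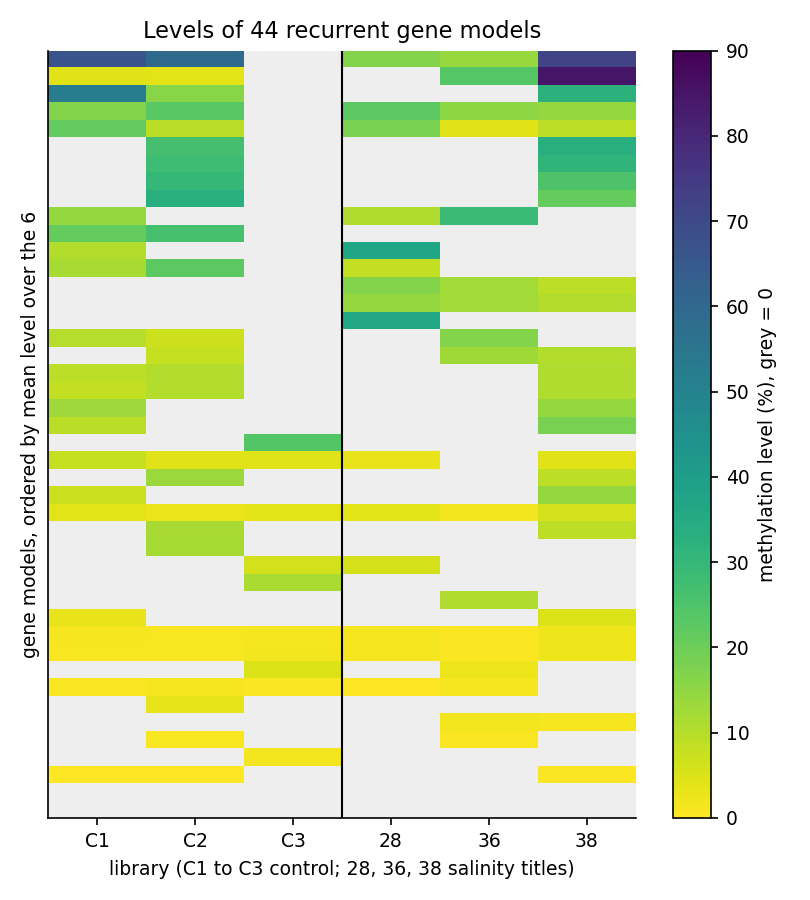
Methylation level in percent (colour, grey for 0) of 44 gene models that were methylated in at least 50% of the other salinity libraries that covered them; columns are the 3 controls and salinity libraries 28, 36 and 38, and rows are gene models ordered by mean level. Control replicate 3 has 10 of the 44 methylated and library 38 has 26, as many as control replicate 2.

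The trio was last set against the 9 other salinity libraries, which carry the same treatment label. Over the 824 gene models covered in all 12, methylated calls made up 0.208%, 0.220% and 0.249% of calls in libraries 28, 36 and 38 and 0.139% to 0.310% in the others. The trio lay within that range (means 0.226% ± 0.0211, n = 3, and 0.238% ± 0.0601, SD, n = 9; two-sided exact permutation over 220 splits, p = 0.745). Methylated calls were present in 5.46%, 6.07% and 4.73% of these gene models in the trio and in 1.82% to 8.50% in the others (exact permutation p = 0.859). Directions in both measures turned with the settings, and libraries 54 and 55 held the lowest values.

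No gene model passed the regression in this comparison (0% of 824), while 28 (3.4%) had an unadjusted p under 0.05, 21 of them higher in the trio. Most of the 21 had methylated calls in a single library of the trio, so their number does not describe the trio as a group. All 28 were among the 185 that had methylated calls, since the others could not reach a small p. The edgeR test called 0, with 7 at an unadjusted p under 0.05. The smallest p belonged to Dapma7bEVm003067t1, which is described because it was closest to the threshold, a choice made after its values were seen. It had 4 of 181 (2.21%), 10 of 198 (5.05%) and 3 of 130 (2.31%) methylated calls in libraries 28, 36 and 38 and none listed in the 96 to 229 calls of each of the 9 other salinity libraries. Its adjusted p from the regression was 0.0521, and the exact permutation p of its levels was 0.00455, the smallest that 220 splits can give. Limma called it, with an adjusted p of 0.0147 among the 185 gene models with methylated calls. Its counts of 4 and 3 in libraries 28 and 38 are near the lowest ones listed. In libraries 51, 54 and 55, counts of 3 were rarely or never listed for any gene model. With methylated counts of 3 or less set to 0, the smallest adjusted p of the regression was 0.115. The controls overlapped the trio here, with 3 of 128 (2.34%) and 9 of 151 (5.96%) methylated calls in replicates 1 and 2 and 0 of 136 in replicate 3.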

How the data were processed

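Each table deposited by the authors holds, per gene model, a total count (N in the file headers) and a methylated count (X) of cytosine calls, without normalization. The submitters' processing notes name Bismark 0.18.1, Trim Galore 0.4.4 and FastQC. No source used here gives the build, cytosine context or calling rule. The methylated values deposited by the authors were treated like estimated counts and rounded, because a few missed a whole number slightly. Of 25092 identifiers, 0 matched the reference table, so no gene lists were used and no position is reported. The members and tests were chosen with earlier results of these data known.

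Tables were joined by identifier, and a gene model was kept where each compared library had 10 calls or more. Library values were compared with two-sided exact permutation tests. Gene models were tested with a quasi-binomial regression (dispersion floored at 1, F test, Benjamini-Hochberg at 0.05, Python 3.11.15, scipy 1.17.1). On simulated data this regression missed most planted differences of 10 percentage points and many of those of 30. Alternatives used edgeR 4.0.16 and limma 3.58.1. Named gene models were, in each direction, the 2 with the smallest p among those methylated in at least 2 libraries of the higher group, and the 2 with the highest mean level. Total calls per library limit the precision and cover counting error only, since calls on a read are not independent.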

Additional observations from a re-analysis of the deposited data

How the results depend on the processing

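No difference in level, share or listed gene models between the trio and the controls passed under any setting tried, and 3 against 3 cannot pass at 0.05. Settings chosen after seeing the data were those without libraries 54 and 55, without the 5 gene models with most methylated calls, limma on gene models with methylated calls, and all those for levels that do not overlap. Leaving out 1 library at a time, differences ran from -0.0122 (without control replicate 3) to 0.0820 percentage points in overall level, from -0.0271 (the same) to 0.264 in mean level, from -0.663 (the same) to 2.06 in the share with methylated calls, from 0.123 to 0.999 in the share at 10% or more, from -1.38 to 2.15 over the recurrent gene models, and from -4734 to -3656 in listed gene models. Against the other salinity libraries they ran from -0.0242 to 0.0122 in overall level and from -0.0268 to 0.765 in the share. The share at 50% or more differed by 0 percentage points. The recurrent gene models turned to -0.322 at a minimum of 20 calls (28 gene models) and to -0.867 over those covered in all 15 libraries (18). Over the 810 gene models covered in all 15, the overall difference was 0.00134. With methylated counts of 3 or less set to 0, it was 0.0361 and kept its direction. Against the other salinity libraries, the overall difference turned to 0.03005 at a minimum of 5 calls. The share turned there to -0.136 at a minimum of 20 and to -0.931 without libraries 54 and 55, where the overall difference was -0.0536 (exact permutation p = 0.0667).

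Against the controls, 2 gene models passed with the dispersion not floored, 6 with limma on all gene models and 37 (24 higher, 13 lower) with Fisher's exact test, which pools libraries and so takes no account of their spread. The 6 of limma were among those whose levels did not overlap. Leaving out 1 library gave 0 to 0 calls in both comparisons. Against the other salinity libraries, 1 passed at a minimum of 20 calls, 1 with the dispersion not floored and 1 with either limma fit, in each case Dapma7bEVm003067t1, and 14 with Fisher's test. Counts of levels that did not overlap ran from 13 to 46 higher and from 8 to 20 lower when 1 library was left out, which by construction makes them easier to reach, and with counts of 3 set to 0 there were 6 higher and 5 lower. The causes of the other shifts were not tested. The labels give no replicate numbers that pair libraries. With 1 control and 1 trio library paired in each title band as a block, exact permutation p was 0.5 to 1 over 5 library values and 0 gene models passed. The smallest p that 3 pairs can give in that permutation test is 0.25, so the library values could not pass.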
